A study of Mus musculus with 9 samples.

Results

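Potassium channel genes were defined here as the genes whose symbol starts with Kcn, taken from array probe sets that the platform annotation pairs with exactly 1 gene symbol. Where a gene had several such probe sets, the one with the highest mean over all 9 arrays stood for it, and the non-coding Kcnd3os and Kcnq1ot1 were left out. The definition gave 88 genes of the 22180 genes measured, in 21 symbol classes from Kcna to Kcnv. Of these, 36 encode voltage-gated subunits (Kcna to Kcnh, Kcnq, Kcns and Kcnv), 14 inward rectifiers (Kcnj), 13 two-pore channels (Kcnk) and 8 channels opened by calcium, sodium or other ligands (Kcnma, Kcnn, Kcnt and Kcnu). The other 17 encode auxiliary subunits (Kcnab, Kcne, Kcnip, Kcnmb and Kcnrg). Some other Kcn genes were not analysed here, and Kcnj13 and Kcnk3 lie only on probe sets that carry several symbols.

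The RNA came from mouse podocytes, the epithelial cells that wrap the capillaries of the kidney glomerulus, grown in vitro. All 9 cultures had been differentiated at 37 °C for 11 days, and the labels name neither a line nor a genotype. The control group received the vehicle DMSO, the second group 2.5 µM thapsigargin for 16 hours, and the third 2.5 µM thapsigargin with 10 µM forskolin for the same time, with 3 arrays each. Replicates are labelled as biological, without a word on what was separate in them, so a p-value covers only the spread seen among 3 such arrays, which may be technical. No group given forskolin alone was analysed here. Below, rose and fell name differences between groups of arrays, not changes of a culture over time. Thapsigargin blocks the SERCA pump, which empties the calcium store of the endoplasmic reticulum and causes stress there, and forskolin activates adenylyl cyclase and so raises cAMP.

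Potassium channels let potassium ions leave a cell along their gradient and so set the resting membrane potential. Voltage-gated members open on depolarisation, inward rectifiers and two-pore channels conduct near rest, and calcium-activated members couple the potential to cytosolic calcium, while auxiliary subunits change gating or delivery to the membrane. In the kidney, Kcnj and Kcnk channels recycle potassium in tubule cells, and large-conductance calcium-activated channels have been studied in podocytes.

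Within groups, arrays correlated at r between 0.989 and 0.993 over all 41345 probe sets, and array medians lay between 5.80 and 5.88 on the log2 scale. Of 8 podocyte markers 5 were measured and 4 of them lay above the median of all probe set values, 5.84: Nphs1, Wt1, Podxl and Synpo did, and Ptpro did not. Of 8 tubule markers, 4 lay above that median as well. Cdh16 averaged 11.16 and Aqp1 11.71 in DMSO, while Umod and Slc12a1 averaged 5.78 and 4.51. The summed linear signal of the 8 tubule markers was 6574.7 to 6717.2 in DMSO, 1166.7 to 1211.1 in thapsigargin and 1306.7 to 1346.5 with forskolin added. The corresponding sums for the 5 podocyte markers were 1162.8 to 1208.7, 528.1 to 540.9 and 483.5 to 506.9. Of the other cells' markers, 1 of 4 for pericytes (Pdgfrb), 1 of 4 for leukocytes (Csf1r) and 1 of 5 for endothelium (Tie1) were called with thapsigargin, all lower, against 16.9% of all genes called lower. Pdgfrb and Csf1r were called higher with forskolin added and Tie1 was not, while the leukocyte marker Ptprc averaged 3.72 to 3.80. The pericyte sums were 1598.5 to 1631.3, 833.6 to 851.2 and 991.6 to 997.9, and the leukocyte sums 531.5 to 555.2, 381.9 to 415.5 and 484.1 to 494.4. The part of these markers in the results was not tested. In RNA from whole cultures, fewer cells of a type and less RNA per cell cannot be told apart.

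Potassium channel probe sets gave mostly dim signals. The mean over 9 arrays exceeded the median of all probe set values for 41 of 88 genes (46.6%), against 58.6% of all genes. Above the median over the genes kept lay 24. By type, 10 of 13 two-pore genes, 5 of 8 ligand-activated genes, 8 of 14 inward rectifiers, 14 of 36 voltage-gated genes and 4 of 17 auxiliary genes lay above the median of all probe set values. By class, all 4 Kcnn genes did, 3 of 8 Kcna, 3 of 8 Kcnh, 2 of 4 Kcng, 2 of 3 Kcns and 2 of 3 Kcnab genes did, as did 1 gene each of Kcnc, Kcnd, Kcne, Kcnip, Kcnq, Kcnt and Kcnv. Kcnb2, Kcnf1, Kcnma1, Kcnrg, Kcnu1 and the 4 Kcnmb genes did not. With each group set against the mean of its own array medians, 47 genes lay above it in DMSO, 38 in thapsigargin and 37 with forskolin added. These cut-offs were 5.86, 5.82 and 5.85, and the shares of all genes above them were not computed. Means ranged from 3.64 for Kcnrg, which encodes a regulator of channel assembly, to 9.87 for Kcnk5, and the 6 highest were those of Kcnk5, Kcna4, Kcnj16, Kcnk10, Kcnk12 and Kcnk1. Signals of different probe sets depend on their probes, so these values rank signals and not amounts of RNA.

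**Figure D1:**
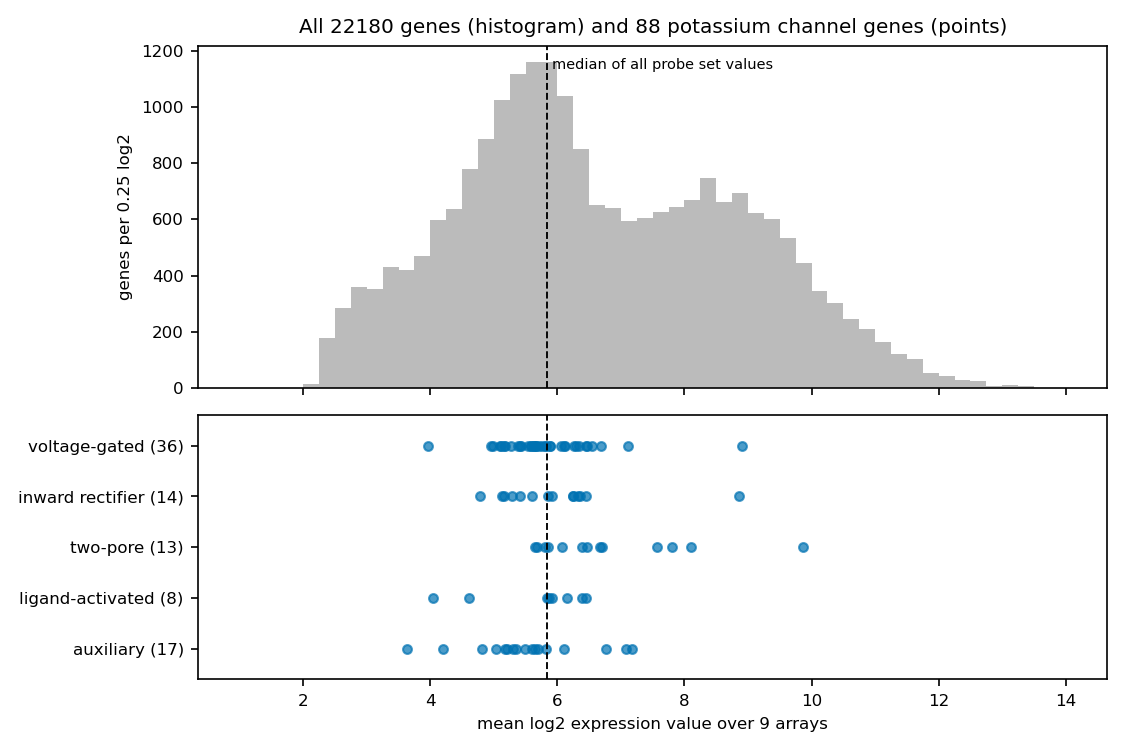
Mean log2 expression value over 9 arrays, shown as a histogram of all 22180 genes (genes per bin of 0.25) and as points for the 88 potassium channel genes by channel type, with the number of genes of each type in parentheses. The dashed line is the median of all probe set values, 5.84; 10 of 13 two-pore genes lie to its right, but 4 of 17 auxiliary genes.

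With thapsigargin a smaller share of potassium channel genes than of all genes was called, and most of the called genes fell. A gene is called here when limma's Benjamini-Hochberg adjusted p over all 22180 genes lies below 0.05. Against DMSO, 4 of 88 potassium channel genes rose (Kcnk10, Kcnip1, Kcnk5 and Kcnk12) and 14 fell. The called share was 20.5%, against 35% of all genes (18.2% higher and 16.9% lower). Of the 41 genes above the median of all probe sets 14 were called, against 55.3% of all genes there, and of the other 47 genes 4 were, against 6.27%. The median difference was -0.09 on the log2 scale over the 88 genes and -0.04 over all genes, and 63 of 88 differences were below 0 (71.6%, against 57.9% of all genes). The groups did not overlap for 25 potassium channel genes, 28.4%, against 43.9% of all genes. Rises of at least 0.5 on the log2 scale were called for Kcnk10 and Kcnip1 (9.7% of all genes) and falls of that size for Kcnj16 and Kcnn3 (8.32%). The falls of Kcnj16 and Kcnn3 also passed 1 (2.94% of all genes), and no rise did (3.08%).

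Adding forskolin to thapsigargin moved 7 of 88 genes. Kcnj16, Kcnk1, Kcnj2, Kcnk5 and Kcnab2 rose, and Kcnip1 and Kcnk12 fell. The share of 7.95% was close to the 7.87% called among all genes (3.7% higher, 4.17% lower). The median difference was 0.00 over the 88 genes and -0.01 over all genes. Rises of at least 0.5 were called for Kcnj16, Kcnk1 and Kcnj2 (1.27% of all genes), and of at least 1 for Kcnj16 and Kcnk1 (0.271%). Neither Kcnip1 nor Kcnk12 fell by 0.5 (0.915% of all genes) or 1 (0.131%). Of the 7 genes, 5 lay among the 41 above the median (12.9% of all genes there) and 2 among the 47 others (0.773%). The groups did not overlap for 14 of 88 genes, 15.9%, against 26.1% of all genes.

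Against DMSO, cells given both agents differed in 15 of 88 genes, 17.0%, against 34.5% of all genes (17.9% higher, 16.7% lower). Kcnk1, Kcnk5, Kcnj2 and Kcnk10 were higher. Kcnn3, Kcnj8, Kcne2, Kcnc2, Kcnab1, Kcne1l, Kcnj4, Kcnh3, Kcng3, Kcnh1 and Kcnmb4 were lower. All 4 rises reached 0.5 (8.78% of all genes) and none reached 1 (2.57%), and among the falls Kcnn3 alone reached 0.5 (7.92%) and 1 (2.7%). Of the 15 genes, 11 lay above the median (53.9% of all genes there) and 4 did not (7.19%). The groups did not overlap for 19 genes, 21.6%, against 42.6% of all genes. The 3 comparisons share arrays pairwise, so their lists are not independent of each other. Over all 3 comparisons 25 of 88 genes were called at least once and 63 were not, against 9067 called of 22180 genes.

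**Figure D2:**
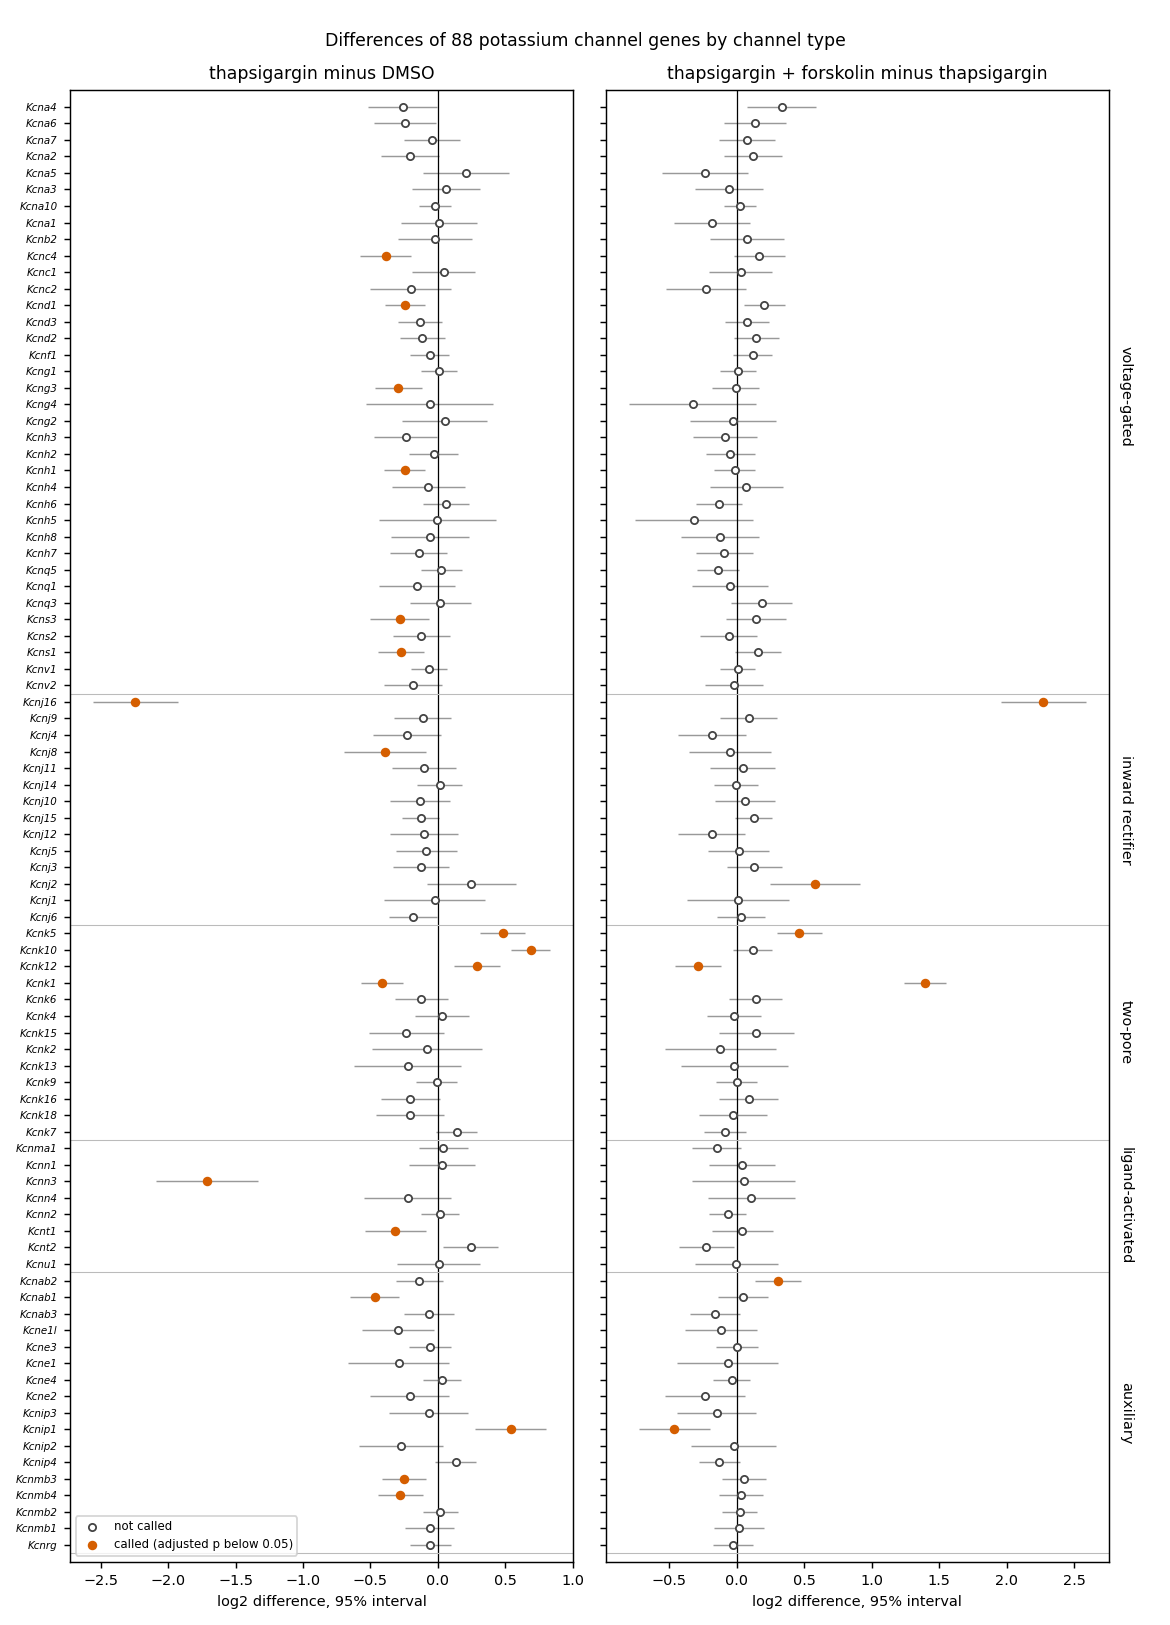
Log2 differences of all 88 potassium channel genes for thapsigargin minus DMSO (left) and thapsigargin with forskolin minus thapsigargin (right), ordered by channel type and class, with limma 95% intervals as bars. Filled points passed an adjusted p below 0.05: 18 on the left, led by Kcnj16 and Kcnn3, and 7 on the right, led by Kcnj16 and Kcnk1.

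The promoters of the 5 genes that rose with forskolin are shown because forskolin acts through cAMP, whose response element is a known DNA motif. RefSeq (GRCm38.p6) gave windows for 68 of the 88 genes, 93 in all. Printed are the 250 bases before the start, 5′ to 3′ on the gene's strand, from the most upstream start where RefSeq has several (4 for Kcnj16, 3 for Kcnab2). The positions are chr11:110967783-110968032 on the plus strand for Kcnj16, chr8:125994852-125995101 on the plus strand for Kcnk1, chr14:20181783-20182032 on the minus strand for Kcnk5, chr11:111065914-111066163 on the plus strand for Kcnj2 and chr4:152477550-152477799 on the minus strand for Kcnab2. Capitals mark the core of the cAMP response element, TGACG or its reverse complement CGTCA.
Kcnj16: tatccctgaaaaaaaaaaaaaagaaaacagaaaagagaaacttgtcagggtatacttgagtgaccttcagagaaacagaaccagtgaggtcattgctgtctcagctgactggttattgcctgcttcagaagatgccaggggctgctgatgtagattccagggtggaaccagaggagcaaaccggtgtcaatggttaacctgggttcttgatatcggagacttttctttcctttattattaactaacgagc
Kcnk1: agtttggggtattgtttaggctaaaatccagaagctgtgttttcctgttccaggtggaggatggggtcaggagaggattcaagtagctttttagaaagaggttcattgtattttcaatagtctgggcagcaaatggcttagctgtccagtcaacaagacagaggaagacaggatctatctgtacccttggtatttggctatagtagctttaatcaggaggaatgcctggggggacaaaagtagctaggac
Kcnk5: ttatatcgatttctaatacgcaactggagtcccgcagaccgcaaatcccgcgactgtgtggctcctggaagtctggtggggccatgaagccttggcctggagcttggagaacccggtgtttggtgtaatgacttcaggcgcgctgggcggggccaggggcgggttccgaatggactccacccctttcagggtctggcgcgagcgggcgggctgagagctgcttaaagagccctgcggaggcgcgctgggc
Kcnj2: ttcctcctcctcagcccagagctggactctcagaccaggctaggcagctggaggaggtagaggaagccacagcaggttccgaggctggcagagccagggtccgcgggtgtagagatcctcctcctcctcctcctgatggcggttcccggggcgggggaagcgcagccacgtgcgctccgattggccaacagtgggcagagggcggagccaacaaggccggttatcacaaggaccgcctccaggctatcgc
Kcnab2: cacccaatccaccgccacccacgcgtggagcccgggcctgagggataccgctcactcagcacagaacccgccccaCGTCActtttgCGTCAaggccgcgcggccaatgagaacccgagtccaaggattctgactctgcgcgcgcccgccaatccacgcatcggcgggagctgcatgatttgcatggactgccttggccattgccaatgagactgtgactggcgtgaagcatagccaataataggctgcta

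The Kcnab2 window held 2 core matches, which start at positions -175 and -164 relative to the transcript start. The printed windows of Kcnj16, Kcnk1, Kcnk5 and Kcnj2 held none, and neither did the other 3 windows of Kcnj16 or the other 2 of Kcnab2. Among all 32851 RefSeq windows of this length 17.8% held TGACG or CGTCA, against 14 of 93 windows (15.1%) of potassium channel genes. The full element TGACGTCA, which contains the core on both strands, occurred in 1.55% of all windows and in 0 of the 93. For endoplasmic reticulum stress, TGATGNAAN (the composite element of ATF4 and CHOP, searched on both strands) occurred in 3.44% of all windows and in those of Kcnab1 and Kcne2. The endoplasmic reticulum stress response element, searched in full on both strands, occurred in 0.113% of all windows and in 0 of the 93. A match is a description of letters, and a missing match says only that these letters are not in the window.

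Among the inward rectifiers, Kcnj16 was lower with thapsigargin than in DMSO, and higher with forskolin added than with thapsigargin alone. It encodes a pore subunit sensitive to intracellular pH that pairs with the Kcnj10 product in the basolateral membrane of tubule cells. Its log2 values were 9.49, 9.59 and 9.69 in DMSO, 7.18, 7.14 and 7.72 in thapsigargin and 9.67, 9.58 and 9.61 with forskolin added. All 3 thapsigargin arrays lay below the other 6, and the DMSO and combined arrays overlapped. Kcnj16 fell by 2.24 ± 0.14 (limma SE, n = 3 per group; 4.74-fold, adjusted p = 1.28e-06) and rose with forskolin by 2.27 ± 0.14 (4.82-fold, adjusted p = 1.57e-05). Cells given both agents differed from DMSO by 0.03, with a 95% interval from -0.29 to 0.34. Kcnj16 is used in tubule cells, and the tubule marker Cdh16 also fell by 3.37 and rose with forskolin by 0.54, whereas Aqp1 fell by 3.24 and its difference with forskolin was -0.16 (adjusted p = 0.119). Of the 8 tubule markers 4 fell with thapsigargin (16.9% of all genes) and 1 rose with forskolin (3.7%), and their part in the Kcnj16 result was not tested.

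Kcnj2 encodes a strong inward rectifier that steadies the resting potential. It lies outside the naming rule, since its group means stayed below the median of all probe sets, and was chosen after its values were seen. Values were 5.002, 4.87 and 4.55 in DMSO, 4.99, 5.17 and 5.01 in thapsigargin and 5.44, 5.52 and 5.94 with forskolin added. The combined arrays lay above the other 6, and DMSO and thapsigargin overlapped. The rise over thapsigargin was 0.57 ± 0.15 (limma adjusted p = 0.0468) and that over DMSO 0.82 ± 0.15 (adjusted p = 0.00166). The first call was lost in 10 of 17 alternatives, with an adjusted p of up to 0.15, among them those without DMSO replicate 2, any 1 thapsigargin array, or combined replicate 2 or 3. The second was lost in none. In the RefSeq table Kcnj16 and Kcnj2 are neighbouring protein-coding genes on chromosome 11.

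Kcnj8, the pore subunit of an ATP-sensitive channel, read 6.498, 6.69 and 6.62 in DMSO, 6.02, 6.35 and 6.26 in thapsigargin and 6.46, 5.97 and 6.03 with forskolin added. DMSO lay above both treated groups on all 3 arrays. It fell with thapsigargin by 0.39 ± 0.13 (limma adjusted p = 0.0476) and was lower than DMSO by 0.45 with both agents (log2 difference -0.45 ± 0.13, adjusted p = 0.0281). The first call was lost in 9 of 18 alternatives, any DMSO array, thapsigargin replicate 1 or 3, or combined replicate 3 left out among them, with an adjusted p of up to 0.162, and the second in 5, with DMSO or combined replicate 2 or 3 left out among them (adjusted p up to 0.102). Kcnj4, a strong inward rectifier, was lower than DMSO with both agents by 0.41 ± 0.11 (difference -0.41, adjusted p = 0.0173), with all 3 combined arrays below all 3 DMSO arrays. That call was lost without DMSO replicate 1 or without combined replicate 2 or 3, with an adjusted p of up to 0.0633. Kcnj10, Kcnj11 and Kcnj15 were not called in any comparison. With thapsigargin the difference was -0.13 for Kcnj10 (95% interval -0.35 to 0.09), the partner of Kcnj16, -0.10 for Kcnj11 (-0.34 to 0.14), the other ATP-sensitive pore subunit, and -0.13 for Kcnj15 (-0.26 to 0.01), a tubule relative of Kcnj10.

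Of the 14 inward rectifiers, 2 fell and 0 rose with thapsigargin, a called share of 14.3%, against 35% of all genes. At an unadjusted limma p under 0.05, 3 were lower and 0 higher. With forskolin added 2 rose and 0 fell (14.3%, against 7.87% of all genes), with the same counts at an unadjusted p under 0.05. The median differences were -0.12 and 0.04, against -0.04 and -0.01 over all genes.

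Of the 13 two-pore genes, 3 rose and 1 fell with thapsigargin (30.8% called, against 35% of all genes, 18.2% higher). With forskolin added 2 rose and 1 fell (23.1%, against 7.87% of all genes and 12.9% of those above the median of all probe sets). With both agents 3 were higher than DMSO (23.1%, against 34.5% of all genes). The same 4 genes, Kcnk1, Kcnk5, Kcnk10 and Kcnk12, made up all of these calls, and each had its own pattern over the 3 groups. The median difference of the 13 was -0.08 with thapsigargin and 0.00 with forskolin.

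Kcnk1 encodes a weakly rectifying leak channel. Its values were 7.40, 7.32 and 7.44 in DMSO, 6.98, 6.87 and 7.07 in thapsigargin and 8.28, 8.44 and 8.37 with forskolin added. No pair of groups overlapped, and the combined arrays were the highest. It fell with thapsigargin by 0.41 ± 0.07 (limma adjusted p = 0.00106) and rose with forskolin by 1.39 ± 0.07 (2.63-fold, adjusted p = 4.73e-06). With both agents it stood 0.98 ± 0.07 above DMSO (adjusted p = 3.62e-06).

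Kcnk5 encodes an alkali-activated leak channel known from the proximal tubule. Its values were 9.23, 9.44 and 9.50 in DMSO, 9.87 on all 3 thapsigargin arrays and 10.27, 10.38 and 10.36 with forskolin added. The 3 thapsigargin values were equal to the last digit deposited, so their SD is 0 and the error comes from the other groups and from limma's moderation. The groups stood in the order DMSO, thapsigargin, combined with no overlap. By limma, Kcnk5 rose by 0.48 ± 0.07 with thapsigargin (adjusted p = 0.000595) and by 0.46 ± 0.07 with forskolin added (adjusted p = 0.00478). With both agents it stood 0.94 ± 0.07 above DMSO (1.92-fold, limma adjusted p = 7.09e-06).

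Kcnk10 encodes a leak channel gated by membrane stretch and lipids. It read 7.53, 7.66 and 7.65 in DMSO, 8.29, 8.33 and 8.28 in thapsigargin and 8.31, 8.48 and 8.47 with forskolin added. Both treated groups lay above DMSO and overlapped each other. The rise was 0.69 ± 0.06 with thapsigargin (1.61-fold, limma adjusted p = 1.93e-05) and 0.81 ± 0.06 with both agents (adjusted p = 7.51e-06). Forskolin added 0.12, with a 95% interval from -0.03 to 0.26 (adjusted p = 0.378).

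Kcnk12 encodes a member of the halothane-inhibited subfamily. Values were 7.76, 7.77 and 7.58 in DMSO, 7.86, 8.09 and 8.02 in thapsigargin and 7.73, 7.69 and 7.68 with forskolin added. The thapsigargin arrays lay above the other 6. It rose by 0.29 ± 0.08 (limma adjusted p = 0.0128) and fell with forskolin by 0.29 ± 0.08 (adjusted p = 0.0476). The rise was lost in 2 of 18 alternatives (another quantile normalization, and thapsigargin replicate 2 left out) with an adjusted p of up to 0.0822. The fall was lost in 10, among them any combined array, DMSO replicate 1 or 2, or thapsigargin replicate 2 or 3 left out, with an adjusted p of up to 0.161.

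Kcnk2, a stretch-gated relative of Kcnk10, was not called. Its difference with thapsigargin was -0.08, with a 95% interval from -0.49 to 0.33, and one combined array (6.73) stood apart from the other combined values, 5.91 and 6.19. Without that array, combined replicate 1, Kcnk2 was called lower with both agents than in DMSO (adjusted p = 0.0226, against 0.433 with all arrays).

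**Figure D3:**
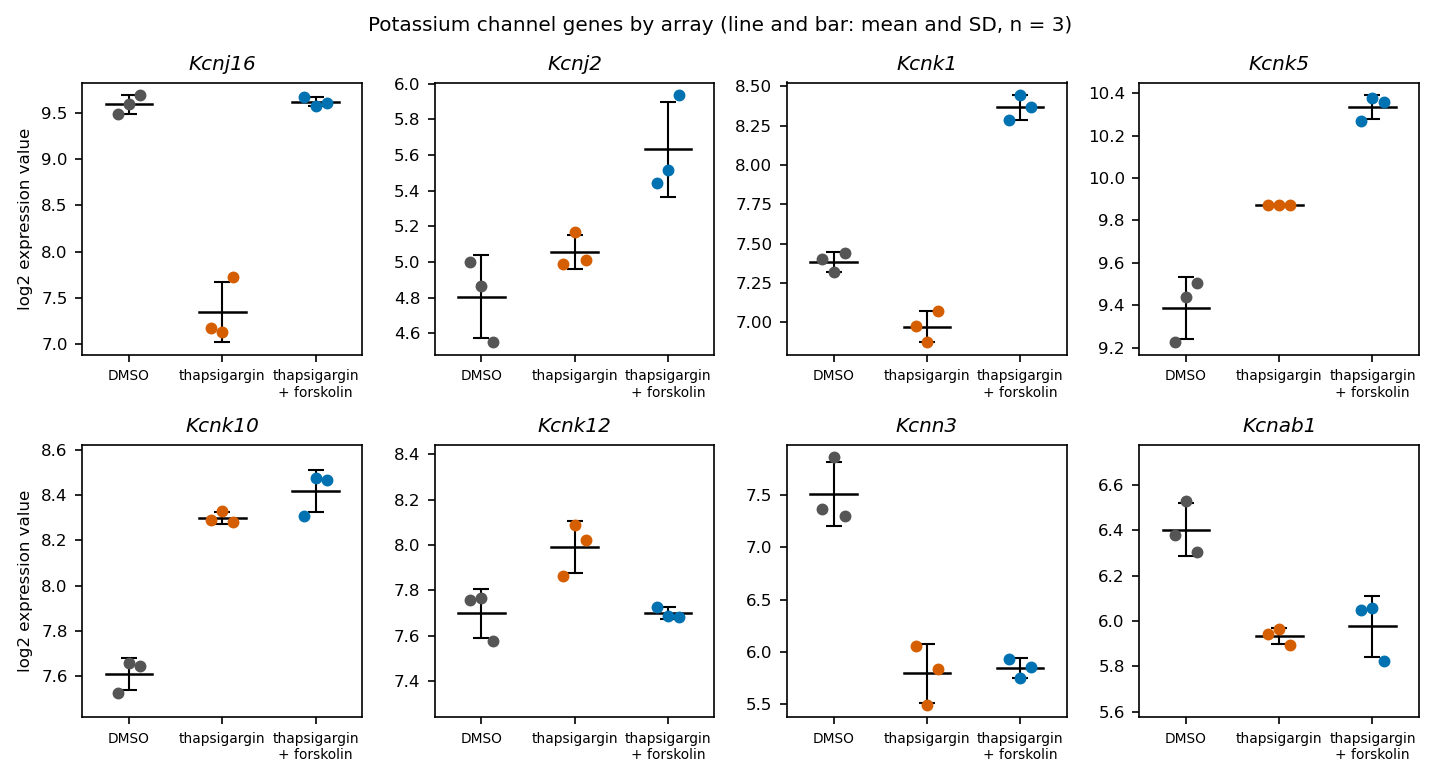
Log2 expression value on each array (points), with group mean and SD (line and bar, n = 3), for 8 potassium channel genes in DMSO, thapsigargin, and thapsigargin with forskolin; each panel has its own axis, which does not start at 0. With forskolin added, the Kcnj16 points overlap those of DMSO, the Kcnk1 and Kcnk5 points lie above them, and the Kcnn3 and Kcnab1 points lie below them.

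Among the calcium-, sodium- and otherwise ligand-activated genes, Kcnn3 was lower than DMSO in both treated groups. It encodes a small-conductance calcium-activated channel, which opens when cytosolic calcium binds its calmodulin. Values were 7.37, 7.86 and 7.30 in DMSO, 6.05, 5.50 and 5.84 in thapsigargin and 5.93, 5.75 and 5.86 with forskolin added. All DMSO arrays lay above all treated arrays, and the treated groups overlapped. With thapsigargin it fell by 1.71 ± 0.17 (3.28-fold, limma adjusted p = 2.89e-05). With both agents the difference from DMSO was -1.66 ± 0.17 (adjusted p = 3.97e-05), and forskolin added 0.05, with a 95% interval from -0.33 to 0.43.

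Kcnt1, a sodium-activated channel, fell with thapsigargin by 0.32 ± 0.10 (limma adjusted p = 0.034), from 6.48, 6.37 and 6.17 to 5.94, 6.17 and 5.96. The lowest DMSO value and the highest thapsigargin value were equal, and the call was lost in 5 of 18 alternatives, with DMSO replicate 1 or 2 or thapsigargin replicate 1 or 3 left out among them (adjusted p up to 0.117). Kcnma1, the pore of the large-conductance calcium-activated channel, read 6.0025, 5.79 and 5.79 in DMSO, 5.90, 6.001 and 5.81 in thapsigargin and 5.78, 5.67 and 5.81 with forskolin added. The 3 groups overlapped, and the interval of the thapsigargin difference ran from -0.14 to 0.22. Kcnn4, the intermediate-conductance channel, differed by -0.22 (-0.55 to 0.10) and Kcnn1, a relative of Kcnn3, by 0.03 (-0.22 to 0.28), with no call. Of the 8 genes, 2 fell and 0 rose with thapsigargin, a called share of 25%, against 35% of all genes (16.9% lower). The unadjusted limma p was under 0.05 for 2 lower and 1 higher. With forskolin added 0 were called, against 7.87% of all genes (unadjusted p under 0.05 for 1, lower).

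Of the 36 voltage-gated genes, 6 fell and 0 rose with thapsigargin, a called share of 16.7%, against 35% of all genes (16.9% lower). The 6 were Kcnc4, Kcng3, Kcns3, Kcns1, Kcnd1 and Kcnh1, by 0.39 to 0.24 on the log2 scale. At an unadjusted limma p under 0.05, 9 were lower and 0 higher. Kcnc4, a fast delayed rectifier, read 7.01, 6.95 and 6.70 in DMSO and 6.53, 6.48 and 6.48 in thapsigargin, without overlap. Its fall of 0.39 ± 0.08 (adjusted p = 0.00465) was called under all 18 alternatives. Kcns1, Kcns3 and Kcng3 encode silent subunits, which conduct only together with other voltage-gated pores. They fell by 0.27 ± 0.08, 0.28 ± 0.10 and 0.29 ± 0.08, with limma adjusted p of 0.0184, 0.0494 and 0.0142. The Kcns3 groups shared the value 6.43, and its call was lost in 10 of 18 alternatives, DMSO replicate 1 or 2, thapsigargin replicate 1 or 3, or combined replicate 2 or 3 left out among them (adjusted p up to 0.166). Kcnd1, an A-type pore, fell by 0.24 ± 0.07 (adjusted p = 0.0174) and Kcnh1, an ether-a-go-go pore, by 0.24 ± 0.07 (adjusted p = 0.0178). The calls of Kcng3, Kcns1, Kcnd1 and Kcnh1 were lost with 1 to 3 arrays left out singly. These were DMSO replicate 1 or 2 for Kcnd1, DMSO replicate 1 for Kcns1, DMSO replicate 2 for Kcnh1, and thapsigargin replicates 3 (Kcnd1, Kcns1 and Kcng3), 2 (Kcns1) and 1 (Kcnh1), with adjusted p up to 0.073.

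With forskolin added to thapsigargin, limma called 0 of the 36 voltage-gated genes, against 7.87% of all genes. At an unadjusted p under 0.05, 2 were higher and 0 lower. With both agents, Kcnc2, Kcnh3, Kcng3 and Kcnh1 were lower than DMSO, by 0.43 to 0.26 on the log2 scale. That is 11.1% called, against 34.5% of all genes. Kcnh1 was called under all alternatives (difference -0.26 ± 0.07, limma adjusted p = 0.0133), Kcng3 in 17 of 18, Kcnc2 in 13 of 17 and Kcnh3 in 11 of 18. Arrays whose omission ended a call were combined replicate 2 for Kcng3, DMSO replicates 1 and 2 and combined replicate 3 for Kcnc2, and each DMSO array and combined replicates 1 and 3 for Kcnh3, with adjusted p up to 0.128. Kcnc2, a fast delayed rectifier, lies below the median of all probe sets and was chosen after its values were seen. Kcna4, an A-type shaker pore, gave the highest voltage-gated signal at 8.91, 8.83 and 9.17 in DMSO, 8.66, 8.59 and 8.88 in thapsigargin and 8.91, 9.03 and 9.18 with forskolin added. All 3 thapsigargin arrays lay below the combined arrays, but neither difference was called (-0.26 ± 0.11, adjusted p = 0.114, and 0.33 ± 0.11, adjusted p = 0.137). The thapsigargin difference was called in 3 of 18 alternatives, among them another quantile normalization and the mean of its probe sets (adjusted p down to 0.0118), and the forskolin difference in 1. The second Kcna4 probe set was dim, at 4.26 to 4.83 over all arrays. Its differences were -0.16 ± 0.12 and 0.00 ± 0.12, with no call, and the 2 probe sets were not tested against each other. Kcng1 and Kcnv1, silent subunits with the highest means of their classes, differed with thapsigargin by 0.01 (95% interval -0.13 to 0.14) and -0.07 (-0.20 to 0.07), with no call in any comparison. Kcnq1, an epithelial pore, and Kcnq5 were not called, with thapsigargin differences of -0.15 (95% interval -0.43 to 0.13) and 0.03 (-0.13 to 0.18). By class, 0 of 8 Kcna and 0 of 3 Kcnq genes were called in any of the 3 comparisons by limma, with Kcna genes at an unadjusted p under 0.05 in 2 cases with thapsigargin (both lower) and 1 with forskolin added (higher), and Kcnq genes in 0. Of the other classes, 2 of 3 Kcnc, 2 of 3 Kcns and 2 of 8 Kcnh genes were called at least once, against 9067 of all 22180 genes, and differences between classes were not tested.

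Auxiliary genes were called in both directions. Of 17, 1 rose and 3 fell with thapsigargin (23.5% called, against 35% of all genes). With forskolin added 1 rose and 1 fell (11.8%, against 7.87%), and 4 were lower than DMSO with both agents (23.5%, against 34.5%). Kcnab1 and Kcnab2 encode cytosolic beta subunits of shaker channels and moved in different comparisons. Kcnab1 read 6.38, 6.53 and 6.30 in DMSO, 5.94, 5.97 and 5.89 in thapsigargin and 6.05, 6.06 and 5.82 with forskolin added. It fell by 0.47 ± 0.08 (limma adjusted p = 0.00129) and was 0.43 lower with both agents (difference -0.43 ± 0.08, adjusted p = 0.00248). Kcnab2 read 7.22, 6.94 and 7.02 in DMSO, 6.91, 6.99 and 6.87 in thapsigargin and 7.20, 7.21 and 7.27 with forskolin added. Its rise over thapsigargin was 0.30 ± 0.08 (adjusted p = 0.0432) and was lost in 10 of 18 alternatives, DMSO replicate 3 and any thapsigargin or combined array left out among them, with an adjusted p of up to 0.149.

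Kcnip1, a calcium-binding partner of A-type channels, was the auxiliary gene that rose with thapsigargin. It lies below the median of all probe sets and was chosen after its values were seen. Values were 4.82, 4.67 and 4.98 in DMSO, 5.63, 5.17 and 5.30 in thapsigargin and 4.94, 4.90 and 4.86 with forskolin added. The thapsigargin arrays lay above the other 6. The rise of 0.54 ± 0.12 (limma adjusted p = 0.00477) was called under all 17 alternatives that tested it, and the fall of 0.47 ± 0.12 with forskolin (adjusted p = 0.0418) was lost in 7, DMSO replicate 1, thapsigargin replicate 1 or 3, or any combined array left out among them, with an adjusted p of up to 0.128. Kcnip3, a calcium-binding partner that is also a transcription repressor, was not called (thapsigargin difference -0.07, 95% interval -0.36 to 0.22).

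Of the 4 genes for beta subunits of the large-conductance channel, 2 fell and 0 rose with thapsigargin (50% called, against 35% of all genes, 16.9% lower). With thapsigargin, Kcnmb3 fell by 0.25 ± 0.07 (limma adjusted p = 0.0212) and Kcnmb4 by 0.28 ± 0.07 (adjusted p = 0.0144), both without overlap with DMSO. The calls were lost in 4 and 2 of 17 alternatives, each with single arrays left out (DMSO replicates 1 and 2 and thapsigargin replicates 1 and 3 for Kcnmb3, replicate 2 of both groups for Kcnmb4), with adjusted p of up to 0.0825 and 0.0555. With both agents Kcnmb4 was lower than DMSO as well (difference -0.25 ± 0.07, adjusted p = 0.0265), a call lost without DMSO replicate 1 or 2 or any combined array (adjusted p up to 0.0878). The second Kcnmb4 probe set differed from DMSO by -0.08 ± 0.09 with thapsigargin and by -0.19 ± 0.09 with both agents. A probe set that Kcnmb4 shares with Kcnmb4os1 differed by -0.12 ± 0.07 and -0.07 ± 0.07. Neither of these probe sets was called when all probe sets were fitted. Kcnmb1 and Kcnmb2 differed from DMSO with thapsigargin by -0.06 (-0.24 to 0.12) and 0.02 (-0.11 to 0.15), with no call. Kcne1l and Kcne2 encode single-span subunits that attach to voltage-gated pores. With both agents they were lower than DMSO by 0.42 ± 0.12 (difference -0.42, adjusted p = 0.0215) and 0.45 ± 0.13 (difference -0.45, adjusted p = 0.025). Each of these calls was lost in 4 alternatives, DMSO replicate 1 or combined replicate 2 left out among them, as well as combined replicate 3 for Kcne1l and DMSO replicate 2 for Kcne2, with adjusted p up to 0.0902. Kcne2 lies below the median of all probe sets and was chosen after its values were seen.

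Genes that work with these channels were read from 5 further lists in the same fit. Of 13 measured potassium pump and cotransporter genes, 6 fell and 0 rose with thapsigargin (the same counts at an unadjusted limma p under 0.05), against 16.9% of all genes lower and 18.2% higher. With forskolin added 2 rose and 0 fell (3 higher, 0 lower unadjusted), against 3.7% of all genes higher and 4.17% lower. Atp1b1, a beta subunit of the sodium-potassium pump, read 11.99 to 12.07 in DMSO, 10.56 to 10.60 in thapsigargin and 11.43 to 11.46 with forskolin added. It fell by 1.44 ± 0.05 with thapsigargin (limma adjusted p = 2.78e-08) and rose by 0.86 ± 0.05 with forskolin added (adjusted p = 8.19e-06). With both agents it lay below DMSO (difference -0.58). Atp1b3, another beta subunit, fell by 0.90 ± 0.05 and rose by 0.23 ± 0.05 (adjusted p = 0.0309), a rise lost in 8 alternatives with an adjusted p of up to 0.114. The potassium-chloride cotransporters Slc12a7 and Slc12a4 fell by 0.65 ± 0.07 and 0.55 ± 0.06 and differed with forskolin by 0.09 and -0.08, with no call.

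Of 10 measured regulators of potassium channels, 4 rose and 3 fell with thapsigargin (70% called, against 35% of all genes), and 3 rose with forskolin added (3.7% of all genes). The 3 that fell with thapsigargin were those that rose with forskolin, in comparisons that share the thapsigargin arrays. Sgk1, a kinase that raises channel and pump numbers at the membrane, fell by 0.32 ± 0.05 (limma adjusted p = 0.000559) and rose by 1.15 ± 0.05 (adjusted p = 1.97e-06), to 0.83 above DMSO. Nedd4l, a ubiquitin ligase, fell by 0.66 ± 0.06 and rose by 0.43 ± 0.06, and the kinase Wnk4 fell by 0.93 ± 0.07 and rose by 0.51 ± 0.07. Stk39, a kinase that WNK kinases activate, rose by 0.83 ± 0.06 with thapsigargin (adjusted p = 4.83e-06), and its difference with forskolin was -0.21 (adjusted p = 0.0812). Akap9, an anchor for protein kinase A at potassium channels, rose by 0.38 ± 0.09 (adjusted p = 0.00646). Cul3, another of the 4 that rose, did so by 0.20 ± 0.06 (limma adjusted p = 0.0307). The Cul3 call was lost in 7 of 18 alternatives, with an adjusted p of up to 0.102. Akap9 and Cul3 lie outside the naming rule and were chosen after their values were seen.

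**Figure D4:**
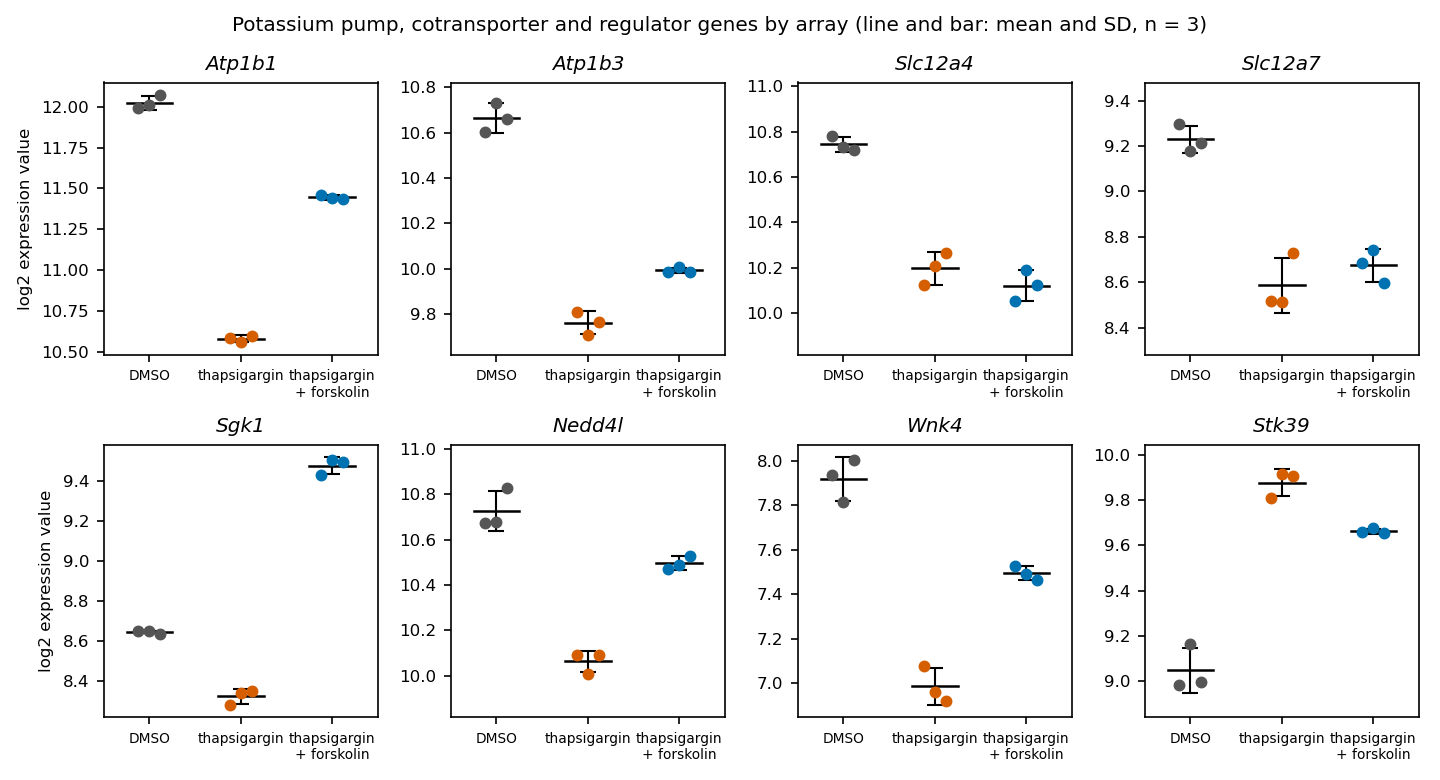
Log2 expression value on each array (points), with group mean and SD (line and bar, n = 3), for 8 genes of potassium pumps, cotransporters and channel regulators in DMSO, thapsigargin, and thapsigargin with forskolin; each panel has its own axis, which does not start at 0. Atp1b1, Nedd4l and Wnk4 are lowest in thapsigargin and lie between thapsigargin and DMSO with both agents. Sgk1 is above DMSO with both agents, and Slc12a4 and Slc12a7 are below DMSO in both treated groups.

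Of 9 partner subunits outside the Kcn symbols, limma called 0 with thapsigargin and 0 with forskolin added, against 35% and 7.87% of all genes. At an unadjusted p under 0.05 there were 0 in either. Lrrc52 was lower than DMSO with both agents (difference -0.51 ± 0.15, adjusted p = 0.0276), although the value 5.45 occurred in both groups. That call was lost in 5 of 17 alternatives, without DMSO replicate 1 or 2 or combined replicate 2 or 3 among them (adjusted p up to 0.104). Of 9 cyclic-nucleotide-gated relatives, 1 fell and 0 rose with thapsigargin (11.1% called, against 35% of all genes). This was Hcn2, a pacemaker channel opened by hyperpolarisation and cAMP, which fell by 0.54 ± 0.08 (limma adjusted p = 0.000433). With forskolin added limma called 0 (1 lower at an unadjusted p under 0.05), against 7.87% of all genes. Of 5 organelle proteins, 1 rose and 2 fell with thapsigargin (60% called, against 35% of all genes). All 5 lie above the median of all probe sets, where 55.3% of all genes were called. Tmem38b, a potassium-permeable channel of the endoplasmic reticulum, rose by 0.36 ± 0.06 (adjusted p = 0.00134). Its relative Tmem38a fell by 0.31 ± 0.08 (adjusted p = 0.0113), and the lysosomal channel Tmem175 fell by 0.24 ± 0.06 (adjusted p = 0.00903).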

How the data were processed

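Podocyte RNA was hybridised to 9 arrays of 1 colour, and sample titles gave the 3 groups of 3. For each probe set the authors deposited a log2 value, which the submitters' processing notes credit to affy and RMA. As a method, RMA corrects background, makes array distributions alike and summarises probes by median polish, so changes are relative to the bulk of genes. Software versions, array annotation and genome build: not given in the sources used here. Scanner files were not used here, so detection above background was not checked, and precision is limited by the number of arrays.

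Of 41345 probe sets, 23521 carry 1 symbol, 1814 several and 16010 none. Entrez IDs of 23328 matched the RefSeq table of GRCm38.p6, and 0 symbols changed. A single limma model (limma 3.58.1 under R 4.3.3) with a mean per group took in all 9 arrays, leaving 6 residual degrees of freedom, with no filter on dim genes. Its 3 two-sided contrasts used eBayes and Benjamini-Hochberg adjustment over 22180 genes. Errors of differences are limma standard errors. Before use, the fit was tested on simulated data holding 200 changed genes, with independent noise for each gene and array. The simulation does not cover noise shared between arrays or the larger number of genes called in these data. Plots used Python 3.11.15 and matplotlib 3.10.9.

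The text names, in each comparison, up to 10 called rises and 10 called falls whose higher group mean exceeds 5.84 and whose groups do not overlap, the gene with the highest mean of each class, a fixed set of 13 genes, and up to 3 called genes of each other list and comparison. Others are marked. Members, lists and the rule were chosen with earlier results of these data known. The alternatives were array weights, eBayes with a robust prior and intensity trend, a filter on dim genes, a second quantile normalization, arrays centred on their medians, the mean of a gene's probe sets, all probe sets fitted together, only the 6 arrays compared, the replicate number as a block, each array left out, and, for the count above the median, the median over genes kept.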

Additional observations from a re-analysis of the deposited data

How the results depend on the processing

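No called potassium channel gene changed sign under any alternative run. Of the calls, 8 of 18 for thapsigargin against DMSO (Kcnab1, Kcnc4, Kcnip1, Kcnj16, Kcnk1, Kcnk10, Kcnk5 and Kcnn3), 3 of 7 for forskolin added (Kcnj16, Kcnk1 and Kcnk5) and 7 of 15 for both agents against DMSO were kept under every alternative that tested them. With each array left out in turn, thapsigargin raised 3 to 5 and lowered 7 to 15 genes. The 14 lowered became 8 without DMSO replicate 1 or 2, 9 without thapsigargin replicate 1 and 7 without thapsigargin replicate 3. Forskolin raised 3 to 5 and lowered 0 to 2. Its 5 raised became 3 without any 1 thapsigargin array or combined replicate 2 or 3, and its 2 lowered became 0 or 1 without DMSO replicate 1 or 2 or any treated array. Both agents raised 4 to 6 and lowered 5 to 15 genes against DMSO, and the 11 lowered became 5 or 6 without DMSO replicates 1 and 2 and 6 or 7 without combined replicates 2 and 3. Centring on array medians and another quantile normalization each left 3 raised by forskolin. Another quantile normalization, the filter on dim genes, all probe sets fitted together, and a fit of only the 6 arrays compared each left 1 lowered by forskolin. The 6-array fit left 7 lowered by both agents. The causes were not tested. Fewer arrays entered with an array left out and in the 6-array fit, and fewer genes with the filter on dim genes. Above the median over genes kept lay 24 potassium channel genes instead of 41, and 41 to 42 with an array left out. Over all genes, calls ranged from 6845 to 8209 for thapsigargin, 1150 to 2407 for forskolin added and 6654 to 8040 for both. Of all genes called with forskolin added, 47% were higher, and 37.2% after centring on array medians. With the replicate number as a replicate block, calls were 4 higher and 15 lower, 4 higher and 1 lower, and 4 higher and 11 lower in the 3 comparisons. Deviations of same-numbered arrays correlated at -0.07 to 0.25 and 5 of 9 arrays matched their own number best. The 3 pairs of number 3 lay at 0.18 to 0.23, but not every pair passed 0.1, so the arrays were not treated as paired. The block gave calls to Kcna4 with thapsigargin (adjusted p = 0.0118) and with forskolin added (0.0195). Dim signal limits what can be read for the 47 genes at or below the median.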

Other observations

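Probe sets left out by the definition of the genes gave these values, fitted with all 41345 probe sets. The non-coding Kcnq1ot1 read 6.47, 6.39 and 6.15 in DMSO, 6.63, 6.62 and 6.62 in thapsigargin and 6.71, 6.56 and 6.79 with forskolin added, and was higher with both agents than in DMSO by 0.35 ± 0.09 (limma SE, n = 3 per group, adjusted p = 0.0283). Kcnd3os read 4.32 to 4.55 in thapsigargin and 4.63 to 4.88 with forskolin added (difference 0.29 ± 0.08, adjusted p = 0.136). Kcnk3, an acid-sensitive leak channel, lies on 2 probe sets shared with Gm9899, and their thapsigargin differences of -0.19 ± 0.09 and -0.09 ± 0.11 were not called. Kcnj13, on a probe set shared with Gigyf2, differed by -0.11 ± 0.10. Of the second probe sets of 7 potassium channel genes, that of Kcnj3 was lower with both agents than in DMSO (difference -0.29 ± 0.08, adjusted p = 0.0246), and the rest were not called in any comparison.

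Neighbouring potassium channel genes did not share a pattern in every pair. The RefSeq table places 10 pairs of the 88 genes side by side among protein-coding genes. Kcnj16 and Kcnj2 both rose with forskolin, by 2.27 and 0.57, and their thapsigargin differences were -2.24 and 0.25. Kcnk5 rose by 0.48 with thapsigargin beside Kcnk16 at -0.21, and Kcnip1 rose by 0.54 beside Kcnmb1 at -0.06. Kcnk16 was chosen after its values were seen, and differences within pairs were not tested.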
